A study of Homo sapiens with 5 samples.

Results

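NDRG1, VEGFA, ADM, NDUFA4L2, ANGPTL4 and CA9 are 6 genes that cells switch on when oxygen is short, 6 of the 26364 genes listed for each library. They were chosen by name because their levels differed between the diets of this study, so their levels are given as a description, with counting intervals and with no test between diets. RNA was sequenced in 5 libraries from tumours of HT-29, an established human colon cancer line. The cells had grown in complete medium and were implanted under the skin of female NOD SCID mice bought at 5 weeks of age, a strain that lacks T and B cells and so accepts human tissue, which then ate 1 of 4 foods. There were 2 libraries from methionine-free food, 1 from food without tryptophan and niacin, 1 from food without methionine, tryptophan and niacin (the combined omission) and 1 from normal food. All groups share the cell line, the host strain and the sex of the mice. The series text gives 2 weeks on the foods and, elsewhere, an experimental period of 3 weeks. The labels do not say whether the methionine-free pair came from separate mice, so p-values measure only how far these samples spread, and that spread may be technical.

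When oxygen falls, the HIF transcription factors are no longer broken down and switch on genes that bring blood vessels, move metabolism from respiration to glycolysis and keep the pH inside the cell steady. VEGFA is the main growth factor for blood vessels, and ADM encodes adrenomedullin, a peptide that widens vessels. NDRG1 is a cytoplasmic protein made under hypoxia and other stress, ANGPTL4 is a secreted inhibitor of lipoprotein lipase, NDUFA4L2 is a mitochondrial protein that lowers respiratory activity, and CA9 is a carbonic anhydrase at the cell surface. CA9 is widely used as a marker of hypoxic tumour tissue.

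The libraries were shallow, with totals of 433930 to 1088084 expected counts (estimated counts that need not be whole). A single count was worth 0.919 to 2.30 CPM (counts scaled to a common library size), and 3 counts, taken as the floor, were worth 2.76 to 6.91 CPM. The deepest library came from normal food and the shallowest from the combined omission. Colon epithelial markers were present in all libraries, with summed levels of 14076 to 17401 CPM over 14 genes. Methionine-free replicate 2 stood apart: with tested genes split into 4 groups by transcript length, its median log2 difference from the normal-food library was 0.49 in the shortest group and −0.44 in the longest, where the other libraries stayed between −0.10 and 0.14. The titles of the combined-omission and normal-food libraries are of a shorter style than those of the other 3. Whether the styles mark separate handling is not known, and in a comparison that sets one style against the other diet and handling cannot be told apart.

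NDRG1 was at 763 and 636 CPM in the methionine-free replicates, 307 CPM without tryptophan and niacin, 2318 CPM in the combined omission and 3302 CPM on normal food (CPM scaled by TMM throughout). The 3 libraries from the single omissions were far below both other libraries. As a share of the normal-food level these values were 23.1%, 19.2%, 9.28% and 70.2%. The methionine-free mean was 699 ± 89.8 CPM (SD, n = 2), and the tryptophan/niacin-free level was below each of the replicates, at a count ratio of 0.402 to replicate 1 (95% exact binomial interval 0.338 to 0.477) and 0.482 to replicate 2 (0.405 to 0.574). Such intervals cover counting error only. In whole tumours, fewer cells that make an RNA and less of that RNA per cell cannot be told apart.

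VEGFA was at 175 and 152 CPM in the methionine-free replicates, 145 CPM without tryptophan and niacin, 462 CPM in the combined omission and 672 CPM on normal food. The 3 lower libraries lay close together, with overlapping counting intervals that ran from 117 to 214 CPM. Unlike for NDRG1, the tryptophan/niacin-free library was not separated from the methionine-free replicates, with count ratios of 0.829 (0.618 to 1.11) to replicate 1 and 0.956 (0.711 to 1.28) to replicate 2. The combined omission was at 68.8% of the normal-food level.

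ADM was at 19.7 and 28.5 CPM in the methionine-free replicates, 15.6 CPM without tryptophan and niacin, 70.2 CPM in the combined omission and 111 CPM on normal food. These rest on 11, 18, 10, 31 and 122 counts. The low libraries did not reach the combined omission, which itself was below normal food at a count ratio of 0.634 (0.413 to 0.946). The order of the 3 low libraries is not resolved, as their intervals overlap.

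NDUFA4L2 was at 82.3 and 98.3 CPM in the methionine-free replicates, 18.8 CPM without tryptophan and niacin, 138 CPM in the combined omission and 165 CPM on normal food. Here the tryptophan/niacin-free library was the low one, at 11.3% of the normal-food level, while the methionine-free replicates kept 49.8% and 59.4%. Its count ratio to replicate 1 was 0.228 (0.11 to 0.437) and to replicate 2 0.191 (0.0937 to 0.358). The ratio of the combined omission to normal food was 0.836 with an interval of 0.615 to 1.12, so that a difference was not detectable at this depth.

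CA9 was at 193 and 182 CPM in the methionine-free replicates, 119 CPM without tryptophan and niacin, 324 CPM in the combined omission and 370 CPM on normal food. As for NDUFA4L2, the tryptophan/niacin-free library was the lowest, but it kept 32.1% of the normal-food level, against 11.3% for NDUFA4L2. The methionine-free replicates were at 52.3% and 49.3% of the normal-food level, against 49.8% and 59.4% for NDUFA4L2. The replicates were close to each other (188 ± 7.82 CPM, SD, n = 2). The ratio of the combined omission to normal food was 0.876 (0.719 to 1.06).

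ANGPTL4 was rare, with 3 and 1 counts in the methionine-free replicates, 0 without tryptophan and niacin, 6 in the combined omission and 16 on normal food. It did not pass the filter on low counts and entered no test across genes. Its levels were 5.37, 1.58, 0, 13.6 and 14.5 CPM in that order. The tryptophan/niacin-free library was at least 3.10-fold lower than normal food against the floor of 3 counts in that library, with a counting interval from 2.24-fold. For replicate 1 the ratio to normal food was 0.369 with an interval of 0.069 to 1.29, which includes no difference, and for replicate 2 it was 0.109 (0.0026 to 0.702).

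**Figure D1:**
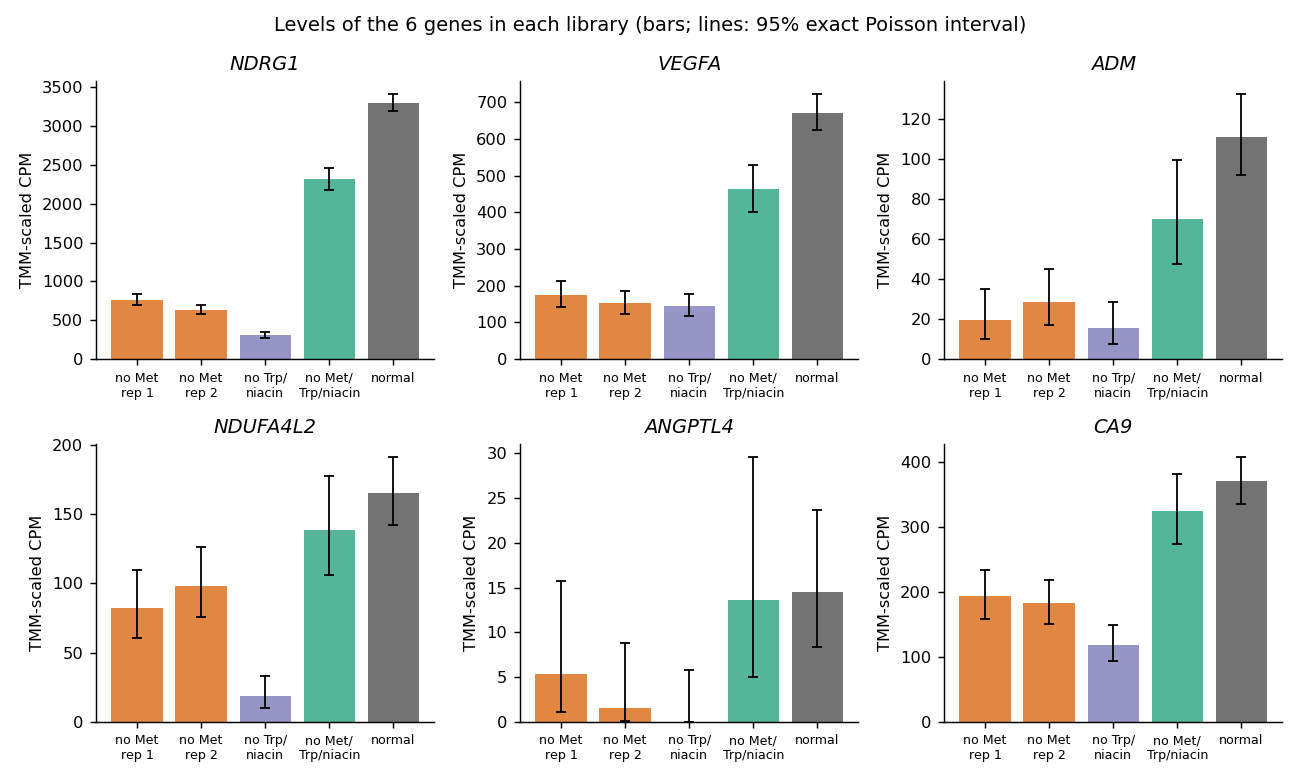
TMM-scaled CPM (y axes, linear, from 0) of the 6 genes in the 5 libraries (x axes: methionine-free replicates 1 and 2, tryptophan/niacin-free, combined omission, normal food), with 95% exact Poisson intervals of the count as error lines. In each panel the first 3 bars are below the last 2. For NDRG1 they reach 763 CPM at most, against 2318 and 3302 CPM.

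For 6 of 6 genes the methionine-free and tryptophan/niacin-free libraries were all below the combined-omission and normal-food libraries. Among the 10006 genes that passed the filter, 15.3% had that order and 13.9% the opposite order. The genes were picked for such differences, so the count is not set against the background as a result. This split of the libraries is also that of their title styles. The lowest library was the tryptophan/niacin-free one for each gene. For NDRG1, NDUFA4L2 and CA9 its counting interval of the ratio to each methionine-free replicate stayed below 1. For VEGFA, ADM and ANGPTL4 it did not. The highest library was normal food for each gene, and the count ratio of the combined omission to it excluded 1 for NDRG1 (0.702, interval 0.654 to 0.753), VEGFA (0.688, 0.587 to 0.805) and ADM, but not for NDUFA4L2, CA9 and ANGPTL4.

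The size of the difference varied between the genes more than between the methionine-free replicates. On the log2 CPM scale (prior count 2) the mean of these replicates minus normal food was −2.24 for NDRG1, −2.09 for ADM, −2.02 for VEGFA, −1.51 for ANGPTL4, −0.97 for CA9 and −0.86 for NDUFA4L2. The SD between the replicates was 0.06 to 0.34 for the 5 genes other than ANGPTL4, for which it was 0.62. Without tryptophan and niacin the differences were −3.42 for NDRG1, −2.95 for NDUFA4L2, −2.61 for ADM, −2.18 for VEGFA and −1.61 for CA9. ANGPTL4 had 0 counts there, and its value depends on the prior count. Both sets of differences share the normal-food library. In the combined omission minus normal food the differences ran from −0.64 for ADM to −0.08 for ANGPTL4.

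A size rule, at least 2-fold with a 95% interval of the count ratio that excludes 1, was used where single libraries were compared. By it, and as a description since the choice of the genes used these levels, 5 of 5 members that passed the filter on low counts were lower in the tryptophan/niacin-free library than on normal food (2.49% of all tested genes), and 0 of 5 in the combined omission (1.08%). In the combined omission 5 of 5 were higher than in the tryptophan/niacin-free library (2.31%, and 1.74% lower). Against normal food 3 of 5 were lower by that rule in methionine-free replicate 1 (2.06%, and 0.929% higher). In replicate 2, the replicate with the larger length pattern, 4 of 5 were lower (8.92%, and 4.91% higher).

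**Figure D2:**
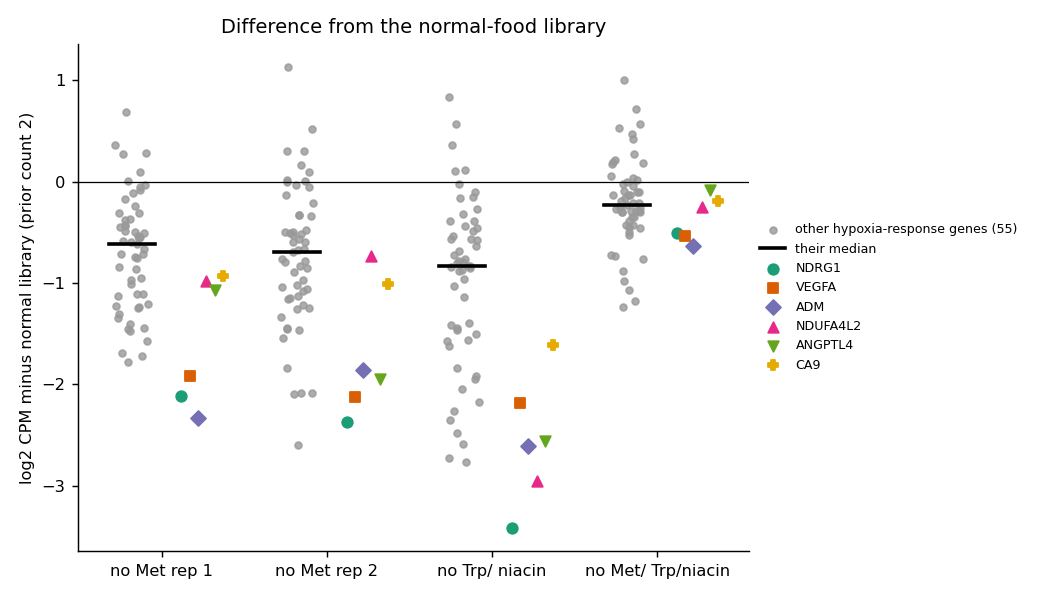
Log2 CPM minus the normal-food library (y axis, prior count 2) in the 4 other libraries (x axis), for the 6 genes (coloured symbols) and for 55 other hypoxia-response genes (grey points, with their median as a black line). The medians of the grey points are −0.61, −0.69, −0.83 and −0.23 in the order of the libraries, and NDRG1 in the tryptophan/niacin-free library is the lowest point, at −3.42.

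Promoters are shown because the 6 genes shared the split into low and high libraries and HIF binds a short motif. In the RefSeq promoter table (build GRCh38.p14) 3 members were matched, ADM, CA9 and ANGPTL4. The 250 bases before each start are shown 5′ to 3′ on the plus strand, with matches to the core motif in capitals, that is ACGTG or GCGTG on this strand or their reverse complements CACGT and CACGC; no matches overlap.
CA9, chr9:35673678-35673927: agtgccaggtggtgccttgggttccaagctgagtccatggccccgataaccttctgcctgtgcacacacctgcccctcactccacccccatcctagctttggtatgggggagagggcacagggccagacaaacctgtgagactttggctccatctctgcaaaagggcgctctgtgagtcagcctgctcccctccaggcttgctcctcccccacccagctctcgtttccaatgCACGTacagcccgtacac
ADM, chr11:10304823-10305072: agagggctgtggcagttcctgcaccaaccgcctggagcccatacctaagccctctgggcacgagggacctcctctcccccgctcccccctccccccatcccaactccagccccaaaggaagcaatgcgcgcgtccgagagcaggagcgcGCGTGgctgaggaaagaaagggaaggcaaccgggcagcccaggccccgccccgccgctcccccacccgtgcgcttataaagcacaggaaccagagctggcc
ANGPTL4, chr19:8363905-8364154: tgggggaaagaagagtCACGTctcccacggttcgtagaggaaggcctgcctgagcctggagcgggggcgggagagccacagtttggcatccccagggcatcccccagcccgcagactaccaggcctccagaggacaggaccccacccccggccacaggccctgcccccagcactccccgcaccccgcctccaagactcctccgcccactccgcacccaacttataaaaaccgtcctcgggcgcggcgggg
Each holds 1 match, beginning 18 bases before the start in CA9, 101 in ADM and 234 in ANGPTL4. Of all 35116 promoters in the table, 43.2% hold a match in the same window, so a match is common and describes these letters only.

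Other hypoxia-response genes were followed through a list of 71 genes without the 6 members, 63 of which had a count and 55 of which were tested. Against normal food, the methionine-free libraries had 3 of these 55 lower and 0 higher by edgeR's quasi-likelihood test with Benjamini-Hochberg adjustment at 0.05 (23 lower and 1 higher at an unadjusted p under 0.05, edgeR, beside 5.2% and 2.47% of all tested genes), where 0.23% of all genes were lower. DESeq2 called 0 of the 55 in either direction (8 lower and 0 higher at an unadjusted p under 0.05), which loses all 3 calls, and limma-voom called 2 lower and 0 higher. All 3 are enzymes of glucose use. HK2, the hexokinase that starts glycolysis, was at 62.6 and 47.5 CPM in the methionine-free replicates and 214 CPM on normal food, and fell (log2 fold change −1.96, SE 0.406, adjusted p = 0.00308, edgeR). ENO2, a glycolytic enolase, was at 62.6 and 42.8 CPM against 192 CPM and fell (−1.87, SE 0.404, adjusted p = 0.00425, edgeR). PFKFB3, which makes an activator of glycolysis, was at 109 and 74.5 CPM against 274 CPM and fell (−1.58, SE 0.407, adjusted p = 0.0479, edgeR). The call of PFKFB3 was lost under RLE scaling, total-count scaling, no filter on low counts, DESeq2 and limma-voom, and was kept with the length correction. The replicates were all below the normal-food library for these 3 genes. The median log2 fold change of the 55 was −0.67, against 0.0016 over all tested genes, with 6 of 55 above 0. The list was written with earlier results of these data known, so it is no independent evidence of its direction.

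The most abundant glycolytic enzymes were closer to their normal-food level. GAPDH was at 3610 and 4162 CPM in the methionine-free replicates, 2965 CPM without tryptophan and niacin, 3818 CPM in the combined omission and 3887 CPM on normal food, and ENO1 was at 1919, 2271, 1822, 2048 and 2026 CPM in the same order. Their log2 fold changes for methionine-free against normal food were −0.0003 (SE 0.68) and 0.05 (SE 0.606), with wide errors. Within the glycolysis group, the 21 tested genes had a median of −0.58. The matrix-modifying group had a median of −1.28 over 5 tested genes and the oxygen-sensing group one of −1.23 over 5, with 0 past the threshold in each.

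The interaction asks whether leaving out methionine did the same in food without tryptophan and niacin as in food with them. It is the difference of combined omission minus tryptophan/niacin-free food, less the difference of methionine-free minus normal food. Of the 55 other hypoxia-response genes 13 passed in the positive direction and 0 in the negative, where 0.41% of all tested genes were positive and 0.00999% negative. At an unadjusted p under 0.05 there were 25 positive and 0 negative, beside 4.51% and 1.96% of all tested genes (0 negative by DESeq2 and limma-voom). DESeq2 called 0 of the 55 positive (19 at an unadjusted p under 0.05), which loses all 13 calls, and limma-voom called 12. The median over the 55 was 1.20, against −0.02 over all tested genes, and 50 of 55 were above 0. The contrast sets the combined-omission and normal-food libraries against the methionine-free and tryptophan/niacin-free ones, which are also the 2 title styles, so that here too diet and handling cannot be told apart.

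Among the enzymes of glucose use, HK2 (interaction log2 fold change 4.39, SE 0.68, adjusted p = 1.16e-06, edgeR), ENO2 (4.08, adjusted p = 7.07e-06) and PFKFB3 (3.39, adjusted p = 0.000345) passed, as did PFKFB4, another maker of the activator (4.06, adjusted p = 0.00378). HK2 was at 36 CPM without tryptophan and niacin, 195 CPM in the combined omission and 214 CPM on normal food. PFKFB4 was at 12.5 and 12.7 CPM in the methionine-free replicates, 10.9 CPM without tryptophan and niacin, 58.9 CPM in the combined omission and 40 CPM on normal food. Its count ratio of the combined omission to normal food was 1.47 with an interval of 0.871 to 2.45, which includes no difference.

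BNIP3L, a receptor for the removal of mitochondria, was at 43 and 33.3 CPM in the methionine-free replicates, 12.5 CPM without tryptophan and niacin, 61.2 CPM in the combined omission and 103 CPM on normal food (3.70, SE 0.786, adjusted p = 0.00153, edgeR). EGLN3, a prolyl hydroxylase that marks HIF for breakdown and is itself induced by it, was at 55.5 and 44.4, 14.1, 79.3 and 110 CPM in that order (3.62, SE 0.754, adjusted p = 0.00108, edgeR). As for the 6 members, both had their low point in the tryptophan/niacin-free library. The size of that gap to the methionine-free pair did not pass the test: by edgeR 0 of 55 genes were called for tryptophan/niacin-free against methionine-free food (5 lower and 0 higher at an unadjusted p under 0.05, beside 2.35% and 2.63% of all tested genes; 0 by DESeq2 and limma-voom), and over all genes 0 were called.

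Of the enzymes that modify collagen, P4HA1 (2.85, adjusted p = 0.00636, edgeR), P4HA2 (2.50, adjusted p = 0.0335) and PLOD2 (3.04, adjusted p = 0.00261) passed. P4HA1 was at 68 and 77.7 CPM in the methionine-free replicates, 57.9 CPM without tryptophan and niacin, 172 CPM in the combined omission and 177 CPM on normal food. In the group of signalling and secreted factors 4 passed. DDIT4, an inhibitor of mTOR signalling, had 3.47 (adjusted p = 0.000345, edgeR), and EFNA1, a membrane-bound ligand of Eph receptors, had 2.81 (adjusted p = 0.0131). The others were SPAG4 (4.00, adjusted p = 0.00622) and PPFIA4 (5.27, adjusted p = 0.0331). PPFIA4 rests on few counts, with 4, 1, 2, 10 and 27 in the order of the libraries, and its call was lost under DESeq2, limma-voom and the length correction. The call of P4HA2 was lost under total-count scaling, no filter and DESeq2.

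**Figure D3:**
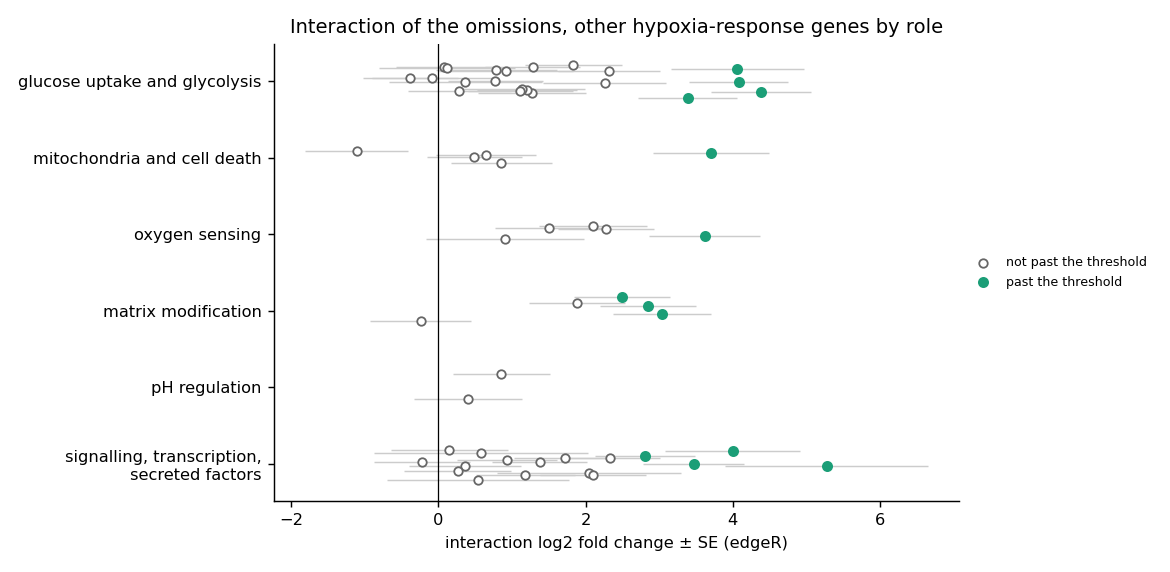
Interaction log2 fold change with its SE (x axis, edgeR) of 55 other hypoxia-response genes, grouped by role (y axis; the vertical spread within a group has no meaning). Filled points passed the adjusted threshold of 0.05. All 13 filled points lie to the right of 0, and 50 of the 55 points do.

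The interaction of the 13 genes was also taken as a difference of log2 CPM with 1 methionine-free replicate left out, which gives no test. Without replicate 1 the values ran from 2.61 to 4.67 and without replicate 2, the library with the larger length pattern, from 2.25 to 4.07. The genes were chosen for a large interaction in these libraries and the other 3 libraries stay in it, so the sign is no sign of stability. For the members the same quantity was 5.28 without replicate 1 and 5.02 without replicate 2 in NDRG1, and 3.43 and 3.68 in NDUFA4L2.

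The combined omission against methionine-free food gave 0 calls among the 55 by edgeR (12 higher and 0 lower at an unadjusted p under 0.05, beside 4.7% and 2.9% of all tested genes; 0 by DESeq2 and 1 by limma-voom), where 0.03% of all genes were higher. The median was 0.39 against −0.02 over all tested genes. By the size rule, 21 of 55 were lower in the tryptophan/niacin-free library than on normal food and 0 higher, beside 2.49% and 1.02% of all tested genes. In the combined omission 0 of 55 were beyond the rule against normal food, beside 1.08% lower and 0.949% higher over all tested genes. Against the tryptophan/niacin-free library 19 of 55 were higher in the combined omission, beside 2.31%. Of the 55, 33 had the methionine-free and tryptophan/niacin-free libraries all below the combined-omission and normal-food libraries and 0 all above, where the shares over all tested genes were 15.3% and 13.9%.

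Among the most abundant genes of the groups other than glycolysis, EGLN3, P4HA1 and DDIT4 passed in the interaction, as given above. The abundant genes that follow passed in no tested comparison. AK4, a mitochondrial adenylate kinase, was at 113 and 111 CPM in the methionine-free replicates, 103 CPM without tryptophan and niacin, 140 CPM in the combined omission and 115 CPM on normal food. FAM162A, a mitochondrial protein induced by hypoxia, was at 64.4 and 85.6, 48.5, 68 and 84.5 CPM in that order. CA12, the carbonic anhydrase that works beside CA9 at the cell surface, was at 177 and 157, 161, 204 and 239 CPM in that order. Its interaction was 0.86 (SE 0.661, adjusted p = 0.922, edgeR). KDM3A, a histone demethylase induced by HIF, was at 94.9 and 93.5, 82.9, 168 and 226 CPM (2.28, SE 0.657, adjusted p = 0.0909, edgeR). ERO1A, an oxidase of protein folding, was at 111 and 103, 98.5, 190 and 204 CPM (1.88, SE 0.653, adjusted p = 0.317, edgeR). TFRC, the transferrin receptor, was at 254 and 220, 241, 304 and 358 CPM (0.93, adjusted p = 0.912, edgeR).

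Most receptors through which VEGFA and ADM act were not detected under human symbols. Counting was on a human genome build and vessels in such a tumour come from the host, so receptors of mouse cells were not assessed. The VEGFA receptors FLT1 and KDR and the adrenomedullin receptor parts CALCRL, RAMP2 and RAMP3 had 0 counts in all 5 libraries, which allows up to 2.76 to 6.91 CPM. NRP1, a VEGFA co-receptor, was at 34 and 11.1 CPM in the methionine-free replicates, 48.5 CPM without tryptophan and niacin, 31.7 CPM in the combined omission and 17.3 CPM on normal food, an order unlike that of VEGFA. RAMP1, which pairs with the adrenomedullin receptor family, was at 32.2 and 38, 17.2, 13.6 and 26.4 CPM. Of the 57 angiogenic ligands, receptors and inhibitors other than the members, 19 were tested. By edgeR 0 of these passed in any of the 4 tested comparisons. At an unadjusted p under 0.05 (edgeR) 2 were lower in methionine-free than in normal food, beside 5.2% of all tested genes. In the interaction 1 was positive, beside 4.51%. Relative to the methionine-free pair, 1 was higher in the combined omission, beside 4.7%. In the tryptophan/niacin-free library 5 were higher than in that pair, beside 2.63%. In each of these comparisons 0 went the other way. By the size rule 3 of the 19 were higher and 0 lower in the tryptophan/niacin-free library than on normal food, beside 1.02% and 2.49%. In the combined omission 0 were higher and 1 lower than in the tryptophan/niacin-free library, beside 2.31% and 1.74%. The most abundant, EPHB4, a receptor of ephrin B ligands, was at 285 and 254, 263, 301 and 249.9 CPM. PLXND1, a semaphorin receptor, was at 170 and 88.7, 152, 252 and 241 CPM.

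The most abundant paralogs and partners of the members were also followed. NDRG3, of the NDRG family, was at 66.2 and 68.1 CPM in the methionine-free replicates, 51.6 CPM without tryptophan and niacin, 65.7 CPM in the combined omission and 63.6 CPM on normal food. NDUFA4, the relative of NDUFA4L2 in the respiratory chain, chosen after its values were seen, was at 73.4 and 193, 98.5, 68 and 83.6 CPM, with its high value in replicate 2. COX4I1, a subunit of cytochrome oxidase, was at 249 and 398, 174, 204 and 225 CPM, again highest in replicate 2. The bicarbonate exchanger SLC4A2 stayed between 407 and 458 CPM and the protease FURIN between 87.2 and 132 CPM. Of the 20 tested paralogs and partners 0 passed by edgeR in any of the 4 comparisons. At an unadjusted p under 0.05 (edgeR), 2 were lower for methionine-free against normal food, beside 5.2% of all tested genes. Against methionine-free food, 1 was lower in the combined omission, beside 2.9%. In the tryptophan/niacin-free library 1 was higher and 1 lower than in methionine-free food, beside 2.63% and 2.35%. For the interaction 1 was positive, beside 4.51%. By the size rule 1 of the 20 was higher and 1 lower in the tryptophan/niacin-free library than on normal food, beside 1.02% and 2.49%. In 6 of the 20 the methionine-free and tryptophan/niacin-free libraries were all below the combined-omission and normal-food libraries, and in 0 all above, beside 15.3% and 13.9%.

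ANGPTL4 is also a target of the PPAR receptors, which switch on fatty acid use. Of 21 PPAR targets 15 were tested and 0 passed in the 4 comparisons by edgeR. At an unadjusted p under 0.05 (edgeR), 2 were lower for methionine-free against normal food, beside 5.2% of all tested genes. Against methionine-free food 1 was lower in the combined omission and 1 in the tryptophan/niacin-free library, beside 2.9% and 2.35%. For the interaction 2 were positive and 1 negative, beside 4.51% and 1.96%. By the size rule 3 of the 15 were lower and 0 higher in the tryptophan/niacin-free library than on normal food, beside 2.49% and 1.02%. In the combined omission 2 were higher and 0 lower than in the tryptophan/niacin-free library, beside 2.31% and 1.74%. ACSL5, an enzyme that activates fatty acids, was at 385 and 398 CPM in the methionine-free replicates, 396 CPM without tryptophan and niacin, 340 CPM in the combined omission and 364 CPM on normal food. TXNIP was at 297 and 284, 250.2, 331 and 234 CPM.

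The HIF subunits themselves, chosen after their values were seen, passed in no tested comparison. HIF1A was at 62.6 and 66.6 CPM in the methionine-free replicates, 43.8 CPM without tryptophan and niacin, 79.3 CPM in the combined omission and 67.2 CPM on normal food, and EPAS1 was at 50.1 and 46, 67.2, 74.8 and 75.4 CPM. Their interaction values were 0.91 and 0.80 (adjusted p = 0.915 for HIF1A and 0.935 for EPAS1, edgeR). These are levels of RNA, and HIF1A is controlled mainly through the stability of its protein. Of 15 tested HIF regulators, 1 passed, EGLN3 in the interaction, beside 0.41% of all tested genes. At an unadjusted p under 0.05 (edgeR), 3 were lower and 1 higher for methionine-free against normal food, beside 5.2% and 2.47%. Against methionine-free food 2 were higher in the combined omission, beside 4.7%. In the tryptophan/niacin-free library 1 was higher and 2 lower, beside 2.63% and 2.35%. For the interaction 3 were positive and 1 negative, beside 4.51% and 1.96%. By the size rule 2 of the 15 were lower and 0 higher in the tryptophan/niacin-free library than on normal food, beside 2.49% and 1.02%. In the combined omission 2 were higher and 0 lower than in the tryptophan/niacin-free library, beside 2.31% and 1.74%. In 7 of the 15 the methionine-free and tryptophan/niacin-free libraries were all below the combined-omission and normal-food libraries, and in 3 all above, beside 15.3% and 13.9%. The most abundant HIF regulators were TCEB2, a subunit of the complex that breaks HIF down, at 125 and 235, 97, 129 and 103 CPM, and CREBBP, a co-activator of HIF, at 87.7 and 47.5, 106, 140 and 133 CPM.

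The 10 genes most like the members were sought among 8345 genes with a mean of at least 20 CPM, by the root mean square distance of their log2 differences from normal food over 4 libraries to the mean of the 5 members that passed the filter (without ANGPTL4). The nearest were HK2 (distance 0.29), BNIP3L (0.29) and ENO2 (0.32), followed by RAB26, PFKFB3, DDIT4, EFNA1, EGLN3, KLHL24 and CCDC183 (0.42). Of these, 7 are on the list of other hypoxia-response genes, which holds 55 of the 10006 tested genes. That list was written with earlier results of these data known, so the overlap is no independent evidence. RAB26, a small GTPase of vesicles, was at 16.1 and 23.8 CPM in the methionine-free replicates, 7.82 CPM without tryptophan and niacin, 31.7 CPM in the combined omission and 53.6 CPM on normal food. CCDC183 was at 77 and 34.9, 26.6, 134 and 189 CPM, and KLHL24 at 34 and 19, 15.6, 43.1 and 85.4 CPM. The members' own distances to their mean ran from 0.34 for VEGFA to 0.68 for CA9. The 10 genes were picked as the nearest, so the values are a description. All distances share the normal-food library.

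**Figure D4:**
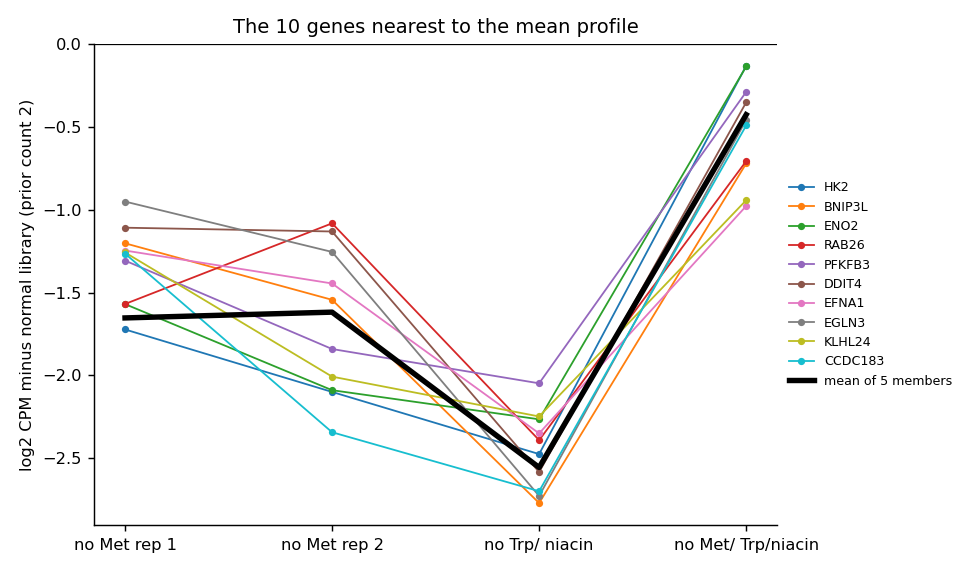
Log2 CPM minus the normal-food library (y axis) in 4 libraries (x axis) for the 10 genes nearest to the mean of 5 members (thick black line); the lines join the values of a gene and imply no order of the foods. The mean is at −1.65 and −1.62 in the methionine-free replicates, −2.56 without tryptophan and niacin and −0.43 in the combined omission, and all 10 genes have their highest point there.

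Markers of other cells bear on the vascular genes, since vessels in such a tumour come from the host. Of 10 endothelial markers 2 had counts, PECAM1 and ESAM, with a summed level of 50.1 and 34.9 CPM in the methionine-free replicates, 31.3 CPM without tryptophan and niacin, 34 CPM in the combined omission and 40.9 CPM on normal food, and VWF, CDH5, KDR and TEK were at 0. Of 6 erythroid markers 0 had a count. Skeletal muscle markers (6 of 8 with a count, CKM and MYLPF at 0) summed to 65.7 CPM in the tryptophan/niacin-free library, against 1.79 to 4.75 CPM in the others. That library is also the lowest for each of the 6 genes, and the part of this muscle RNA in the result was not tested. Fibroblast markers (3 of 9 with a count, COL1A2, COL3A1 and PDGFRB at 0) summed to 15.9 to 20.3 CPM. Adipocyte markers (2 of 5, ADIPOQ at 0) summed to 5.45 to 11.1 CPM and skin keratinocyte markers (2 of 6, KRT5 and KRT14 at 0) to 18.8 to 27.3 CPM. Of 9 leukocyte markers 4 had a count, PTPRC and CSF1R were at 0, and the sum of 2019 to 3704 CPM was almost all LYZ. Mouse RNA counted under human symbols would not be recognised here, and mouse RNA not counted on the human build would not show.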

How the data were processed

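Per the labels' protocols, the library kit kept strand and selected mRNA. Values in the deposited tables are expected counts, 1 per gene symbol and not normalized, with decimals in 15.2% to 17.6% of the values above 0. Per the submitters' processing notes, the build was hg19 and the tools were Subread 2.0.0, featureCounts, SAMtools 0.1.18, Bowtie2 2.2.8 and TopHat2 2.1.1. Not given in the sources used here are the annotation, the strand setting, the handling of reads with several positions and any removal of mouse reads, so overlapping and near-identical genes are uncertain.

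Counts were rounded, and filterByExpr on the 4 diets kept 10006 genes and removed 16358. Levels are CPM scaled by TMM. Tests used edgeR 4.0.16 in R 4.3.3 (quasi-likelihood F-test, 1 mean per diet over all 5 libraries, Benjamini-Hochberg adjustment over all tested genes, threshold 0.05). Only the methionine-free pair gives a residual degree of freedom (1), and diets with a lone library were assumed to vary like it (biological coefficient of variation 0.207). In the main fit the prior degrees of freedom were infinite. The test thus took the spread of each gene from the trend over all genes, and the gene's own spread had no weight. Comparisons between lone libraries used the size rule and no test: at least 2-fold (prior count 2) with a 95% exact conditional binomial interval that excludes 1. Alternatives were RLE and total-count scaling, no filter, DESeq2 1.42.0, limma-voom (limma 3.58.1), a length correction (GENCODE lengths, 95.8% of tested genes), at least 3-fold, another prior count and leaving out each replicate.

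The members and gene lists were chosen with earlier results of these data known. Genes named are the 6 members, list genes past the threshold, the most abundant of each role or list, and the 10 most like the members (by the mean of the 5 that passed the filter, where the rule as written had 6). One gene that the rule names is not reported here. Intervals and floors cover counting error only.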

Additional observations from a re-analysis of the deposited data

Results flagged for a closer look

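For all 6 members, leaving out methionine went with a lower level in food with tryptophan and niacin (both methionine-free libraries below normal food) and with a higher level in food without them (the combined omission above the tryptophan/niacin-free library). Both effects set one title style of the libraries against the other, so diet and handling cannot be told apart in them. The difference between these effects is given for the members with no test, since they were chosen on these levels. As log2 CPM it was 5.15 for NDRG1, 4.07 for ADM, 3.99 for ANGPTL4, 3.67 for VEGFA, 3.56 for NDUFA4L2 and 2.39 for CA9. The value of ANGPTL4 rests on 26 counts in all and on a library with 0 counts, so it depends on the prior count.

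The same difference passed edgeR's test of the interaction for 13 other hypoxia-response genes. Its log2 fold change was 5.27 for PPFIA4, 4.39 for HK2, 4.08 for ENO2, 4.06 for PFKFB4, 4.00 for SPAG4, 3.70 for BNIP3L, 3.62 for EGLN3, 3.47 for DDIT4, 3.39 for PFKFB3, 3.04 for PLOD2, 2.85 for P4HA1, 2.81 for EFNA1 and 2.50 for P4HA2. The contrast coincides with the title styles of the libraries, and diet and handling cannot be told apart in it. DESeq2 called 0 of the 55 tested genes on the list of other hypoxia-response genes. That list was written with earlier results of these data known.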

How the results depend on the processing

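Over the 6 members, 64 of 69 recomputed log2 differences from normal food moved by less than the SD of the methionine-free pair, 5 moved by more and 0 changed sign, not counting those that leave out 1 of the pair, which by construction move a mean by less than that SD. The length correction moved VEGFA to −1.56, NDUFA4L2 to −1.19 and CA9 to −1.23 (methionine-free minus normal food), total-count scaling moved CA9 to −1.03, and a prior count of 0.5 moved ANGPTL4 to −4.37 in the tryptophan/niacin-free library. DESeq2 gave 1 gene in place of 23 for methionine-free against normal food, 0 in place of 3 for the combined omission against methionine-free food and 2 in place of 42 for the interaction, and among the 55 other hypoxia-response genes 0 in place of 3 and 0 in place of 13 for the first and last of these. The length correction gave 5 in place of 3 of the 55 for methionine-free against normal food. For the combined omission against methionine-free food, total-count scaling gave 6 genes and limma-voom 9 in place of 3, and each gave 1 of the 55 in place of 0. At least 3-fold gave 84 genes in place of 351 (tryptophan/niacin-free against normal food), 48 in place of 203 (combined omission against normal food) and 136 in place of 405 (combined omission against tryptophan/niacin-free food). For these shifts the cause was not tested, apart from the stricter fold. Without either methionine-free replicate the additive fit gave 0 genes (lowest and highest) in each comparison it can give. That fit holds the effect of methionine equal with and without tryptophan and niacin, and by that construction the log2 fold change of HK2 turned to 0.055 without replicate 1 and 0.15 without replicate 2, and those of PFKFB3 and ENO2 to 0.12 and 0.14 without replicate 2. It gives no interaction. No paired analysis was possible because only methionine-free food had more than 1 library. With 1 library in 3 of the 4 diets and 433930 to 1088084 counts, counting error at 50 CPM alone is 13.6% to 21.5%.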
